A study of Mus musculus with 6 samples.

Results

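Basal epithelial cells of the mouse mammary tumor are described here. They were chosen from 3 droplet libraries by their RNA counts. A UMI (unique molecular identifier) tags 1 captured RNA molecule, so copies made by amplification count once. A basal cell was a cell with 200 to 4000 genes and at most 25% of its UMIs from mitochondrial genes, at least 5 UMIs of Krt5 and Krt14 together and at least 1 of Krt5. It held no UMI of Ptprc (the leukocyte antigen CD45) or Pecam1 (the endothelial antigen CD31), at most 1 of Mki67 and Top2a together (cell cycle genes) and fewer than 4 of Klk6, Klk10 and Dmkn together (keratinization genes). This rule found 125 cells among 17562 tumor cells that passed the limits on genes and mitochondrial UMIs. The deposited tumor matrix held 24527 cells and the whole series 58561, kidney included.

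The study compared a microfluidic platform for tissue dissociation with conventional digestion. All 3 tumor libraries came from MMTV-PyMT tissue of 10-week-old females, a model in which the polyoma middle T oncogene is driven by a mammary tumor virus promoter active in mammary epithelium. Tumor tissue was minced and digested with 0.25% type I collagenase, and every suspension was treated with DNase I, lysed for red blood cells and sorted for viable cells with SytoxBlue before loading on the 10X Chromium. The control was digested for 60 min. The study describes its controls as further broken up by pipetting and vortexing and then strained. Platform cells were taken from the digestion device at 15 min and again at 60 min and passed once through an integrated dissociation and filter device. Each condition was 1 library of a single replicate. The study's reporting summary states that tissue of 1 mouse served every condition within a replicate. Differences between conditions therefore could not be checked against replicates, and no test was run. All intervals are 95% intervals that cover counting error only and leave out the spread between cells, digests and animals.

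Mammary ducts are built of an inner luminal layer, which makes milk, and an outer basal layer in contact with the basement membrane. Basal cells carry keratins 5 and 14, depend on the transcription factor p63 (Trp63) and anchor to laminin through hemidesmosomes. Many of them are myoepithelial, meaning that they hold smooth muscle actin and squeeze milk along the duct when oxytocin binds its receptor. MMTV-PyMT tumors are known to be made mostly of luminal cells.

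Krt5 and Krt14 chose the cells, and their levels are therefore a description. Krt5 (chr15:101707070-101712898, minus strand, build mm10) and Krt14 (chr11:100203162-100207548, minus strand) encode the partner keratins of the basal layer. Krt5 plus Krt14 had medians of 31, 37.5 and 43.5 UMIs per cell in the control, 15 min and 60 min libraries, with ranges of 7 to 143, 5 to 162 and 5 to 248. These ranges overlapped almost completely. Most basal cells lay far above the threshold of 5 UMIs, since 115 of 125 held at least 10. The 10 cells with 5 to 9 UMIs had 37.6 CPM of Trp63 (UMIs per 1000000 UMIs of the summed cells) against 181 CPM in the other 115, and 4393 against 929 CPM of Krt8 and Krt18, the keratins of luminal cells. The 11 cells just outside, with 3 or 4 UMIs, held no UMI of Trp63 and 3273 CPM of Krt8 and Krt18. Cells at the edge thus carried more luminal keratin and less Trp63 than the bulk of the basal cells.

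**Figure D1:**
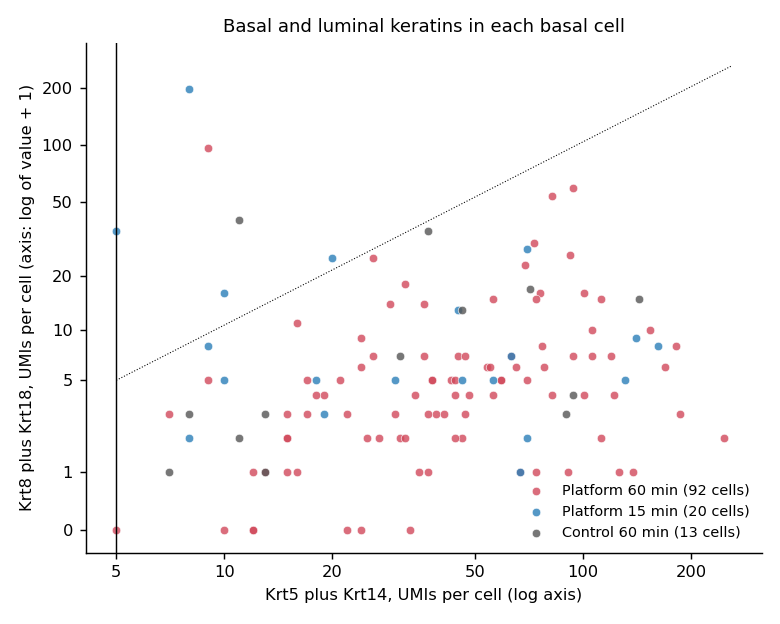
Each point is 1 of the 125 basal cells. The x axis gives Krt5 plus Krt14 and the y axis Krt8 plus Krt18, both in UMIs per cell on log axes (1 added to the y value). The vertical line marks the limit of 5 UMIs and the dotted line equal UMIs of both pairs. The 6 cells above the dotted line were 1 from the control, 4 from the 15 min and 1 from the 60 min library.

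Trp63 and Lgals7, named as markers of these cells, were not used to choose them. Trp63 (chr16:25683763-25892102, plus strand), the master regulator of basal epithelium, stood at 221 CPM (143 to 327) in control basal cells, 133 CPM (84.4 to 200) at 15 min and 171 CPM (143 to 203) at 60 min. Luminal cells were defined by at least 5 UMIs of Krt8 and Krt18, no Krt5 and at most 1 UMI of Krt14. The limits on Ptprc, Pecam1, cell cycle and keratinization genes were those of the basal rule, so cycling and keratinizing cells were left out. Luminal cells held 4.03, 6.79 and 9.95 CPM of Trp63. At least 1 UMI of Trp63 was found in 8 of 13, 12 of 20 and 54 of 92 basal cells, which is 61.5, 60.0 and 58.7%. In leukocytes (at least 2 UMIs of Ptprc and none of Epcam or Pecam1), a class that should lack the gene, the shares were 0.116, 0 and 0%, with 0 of 709 cells allowing a share of up to 0.423% and 0 of 1235 up to 0.243% (3 counts of the total). Median depth was 8763, 8745 and 7986 UMIs in basal cells and 10052, 9099 and 11284 in leukocytes. With each cell thinned to 3000 UMIs, 30.8, 20 and 34.5% of basal cells kept a UMI of Trp63, after 5 shallower 60 min cells were left out.

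Lgals7 (chr7:28863853-28866284, plus strand) encodes galectin-7, a lectin of stratified epithelia. It reached 1284 CPM (1083 to 1510) in control, 759 CPM (634 to 900) in 15 min and 1042 CPM (972 to 1117) in 60 min basal cells, against 34.6 to 42.9 CPM in luminal cells. It was unevenly spread, since 5 of 13, 7 of 20 and 32 of 92 basal cells had none. In the control, 1 cell supplied 63.4% of its UMIs, and the level without that cell was 528 CPM. Both markers stood far above luminal and leukocyte levels in every library, so the label was kept. Even so, 0, 2 and 5 basal cells of the control, 15 min and 60 min libraries had no UMI of Trp63, Lgals7, Acta2 or Krt17.

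Markers of other cell classes were read next. All 8 luminal markers were present in each library, at a summed 2576, 4267 and 2331 CPM against 11574, 7995 and 8742 CPM in luminal cells. All 4 markers of erythroid cells were at 0 in all 3 libraries. Summed adipocyte markers reached 0, 5.79 and 0 CPM and Schwann markers 35.4, 81.1 and 62.2 CPM. Summed endothelial markers were at 0, 5.79 and 13 CPM, and fibroblast markers at 443, 185 and 231 CPM. Summed pericyte markers reached 567 CPM in the control and 11.6 and 6.48 CPM on the platform, because 1 control cell held 64 pericyte UMIs, 49 of them Rgs5. Leukocyte markers summed to 53.1, 57.9 and 299 CPM, with the T cell gene Cd3e at 0 throughout, and 2 of the 60 min cells held 54 and 145 leukocyte UMIs. Those 2 cells also held 120 and 506 UMIs of Cd74, the invariant chain of class II antigen presentation. A cell of the 15 min library held 5 leukocyte UMIs. In all, 4 basal cells carried at least 3 UMIs of leukocyte, pericyte or endothelial markers in sum. Several results resting on them are given with and without them. Without them, Trp63 in control basal cells was at 168 CPM. Cells with at least 3 UMIs of fibroblast markers, a list that holds genes also found in basal cells, numbered 6, 4 and 19 and were not left out, and their part in the results was not tested. Of 57 barcodes found in 2 libraries, 0 belonged to basal cells, and Scrublet, a caller of doublets (2 cells under 1 barcode), marked 0 of the 125.

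The promoters of Col17a1 and Col7a1, collagens of epithelial anchoring that stood far above their luminal levels, are shown with that of Krt5, which defined the cells. Each is the 100 bases before the earlier of the gene's starts in the RefSeq and GENCODE annotations, build GRCm38.p6, written 5′ to 3′ along the gene's strand. The mouse promoter windows used for background shares lie before the RefSeq start alone. Capitals mark letters that match a searched motif. The windows are chr15:101712906-101713005 (minus strand) for Krt5, chr19:47692095-47692194 (minus strand) for Col17a1 and chr9:108953486-108953585 (plus strand) for Col7a1.
Krt5: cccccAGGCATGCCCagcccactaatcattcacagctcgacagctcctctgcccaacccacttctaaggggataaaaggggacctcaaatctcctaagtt
Col17a1: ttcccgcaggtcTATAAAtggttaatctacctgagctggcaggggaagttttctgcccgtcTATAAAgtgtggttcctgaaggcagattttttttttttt
Col7a1: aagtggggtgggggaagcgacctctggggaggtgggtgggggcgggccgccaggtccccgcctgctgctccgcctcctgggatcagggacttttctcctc
Krt5 held a p53 family half-site, the unit to which p63 can bind, starting 95 bases before its start, and 2.56% of 32817 mouse promoter windows of this length held one on either strand. Col17a1 held TATAAA at 88 and 39 bases before its start, a word found in 5.57% of windows. TGANTCA, the AP-1 motif (2.73% of windows), and the CArG box bound by serum response factor (0.616%) were searched on both strands and had no match in these 3 windows. A match is a description of the sequence and not a binding site.

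The first question was what share of the cells of each library were basal. Shares do not give the number of cells released, because suspensions were sorted and loaded at a set number of cells. The 60 min platform interval gave the highest share, 92 of 6024 kept cells or 1.53% (1.23 to 1.87). The control gave 13 of 5736 or 0.227% (0.121 to 0.387), and the 15 min interval 20 of 5802 or 0.345% (0.211 to 0.532). The interval of the 60 min library did not overlap that of either other library, whereas those of the control and 15 min libraries overlapped. The 60 min share was 6.74 times the control share (3.75 to 13.1), a difference of 1.30 percentage points (0.978 to 1.66). It lay 1.18 points (0.846 to 1.55) above the 15 min share. The control was a whole digest, whereas the 60 min platform library held only cells collected after the earlier collection at 15 min. Each platform share is thus that of a fraction, and neither ratio to the control describes the whole platform run. The 15 min share differed from the control by 0.118 points (-0.0834 to 0.328) at a ratio of 1.52 (0.72 to 3.33), so a difference between them was not detectable at this depth. Other cell classes moved as well, which touches any share of all cells. Luminal cells made up 43.7, 50.1 and 28.1% and leukocytes 15.0, 12.2 and 20.5% of kept cells. Counted over cells with Epcam UMIs alone, the 60 min share was 10.5 times the control share.

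**Figure D2:**
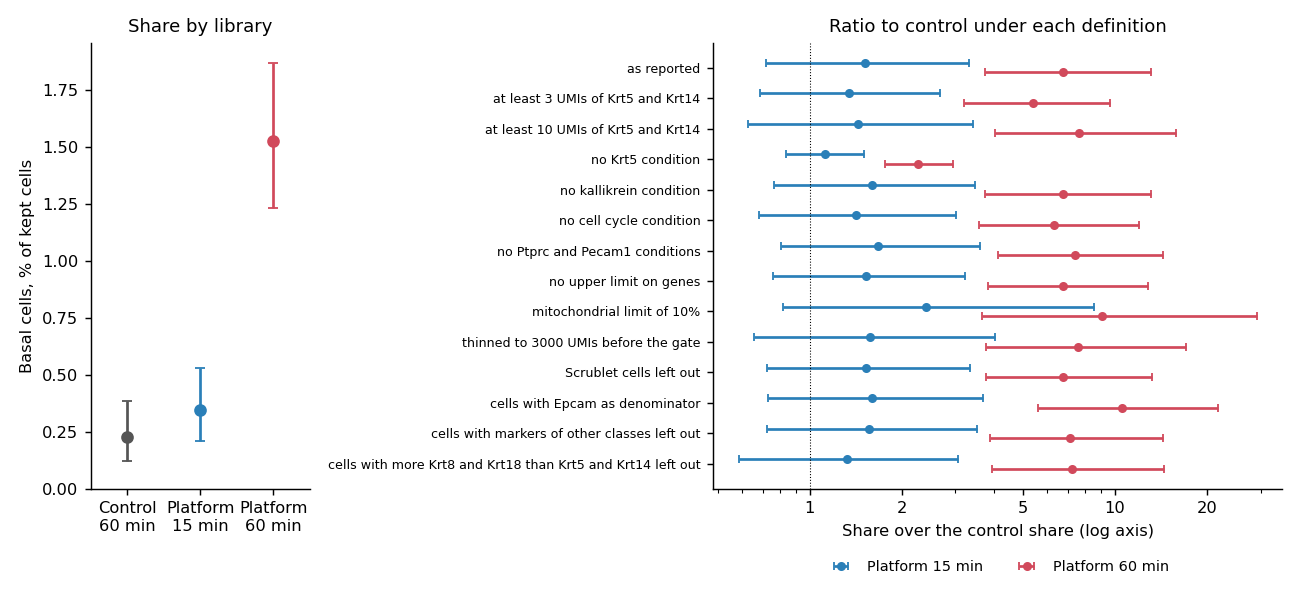
Left, basal cells as a percent of kept cells in each library, with exact binomial 95% intervals. Right, the platform share over the control share on a log axis under each way of choosing cells, with 95% intervals. All 60 min intervals lie above 1 and all 15 min intervals include 1. The 60 min ratio is lowest, 2.27, when Krt5 is not required.

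The 60 min share stayed above the other shares under each way of choosing cells, but the size of the ratio depended on Krt5. Without the need for a Krt5 UMI, 277 more cells entered, 76 from the control, 81 from 15 min and 120 from 60 min, and the 60 min ratio to the control became 2.27. Those added cells differed from the basal cells. They held 4.3, 9.9 and 32.8 CPM of Trp63 and 4368, 2320 and 3070 CPM of Krt8, so Trp63 was below and Krt8 above its level in basal cells in every library. Leukocytes gave the level of free RNA for the keratins, since 1.05, 1.41 and 3.73% of leukocytes held any UMI of Krt5 or Krt14, and 0, 0 and 1 leukocytes passed the limits on both keratins. The cell cycle limit removed few cells: 1 control cell, none at 15 min and 1 cell at 60 min met the other conditions with 2 or more UMIs of Mki67 and Top2a.

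Basal and luminal cells differed along the contrast that chose them, so the following levels are given without a test. Of 12519 genes with at least 50 UMIs over both classes, 700 (5.59%) were at least 2-fold higher and 1186 (9.47%) at least 2-fold lower in basal cells in all 3 libraries. The counting interval lay above 1 in every library for 394 of the genes counted as higher. It lay below 1 in every library for only 138 of those counted as lower, and 700 of these 1186 had no UMI in any basal cell, so most of the lower count is what the small basal sums leave unseen. The median gene stood at a basal to luminal ratio of 0.880, 0.988 and 1.05 in the control, 15 min and 60 min libraries. Col17a1, Sostdc1, Cyp26a1 and Acta2 led the higher side and Lalba, Scgb2b27 and Lrg1 the lower.

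Of 22 tested genes of hemidesmosomes and basement membrane, 17 were higher in basal cells and 0 lower. Col17a1 (chr19:47646344-47692094, minus strand), the transmembrane collagen of hemidesmosomes, held 336 CPM (238 to 462) in the control, 145 CPM (93.7 to 214) at 15 min and 170 CPM (142 to 201) at 60 min. It was found in 10 of 13, 11 of 20 and 60 of 92 basal cells (69.2, 35 and 35.6% of cells thinned to 3000 UMIs) and in 1 of 7103 luminal cells. Col7a1, the anchoring fibril collagen, stood at 319, 261 and 205 CPM against 2.99, 2.63 and 1.69 CPM in luminal cells. Lama3, the alpha chain of laminin-332, held 106, 110 and 59.6 CPM against less than 1 CPM. The integrin pair that binds laminin was higher by smaller factors. Itga6 held 266, 446 and 363 CPM against 117, 153 and 127 in luminal cells, and Itgb4 held 168, 272 and 197 against 66.1, 67.9 and 70.6. Sparc, a collagen-binding matrix protein, held 2983, 4070 and 2384 CPM against 10.0, 19.5 and 88.4. Among the desmosome genes, 4 of 8 tested were higher and 0 lower. The 4 were Dsp, Pkp1, Pkp3 and Perp, and Dsp, which links the junction to keratin, held 248, 266 and 232 CPM against 22.9 to 38.5.

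**Figure D3:**
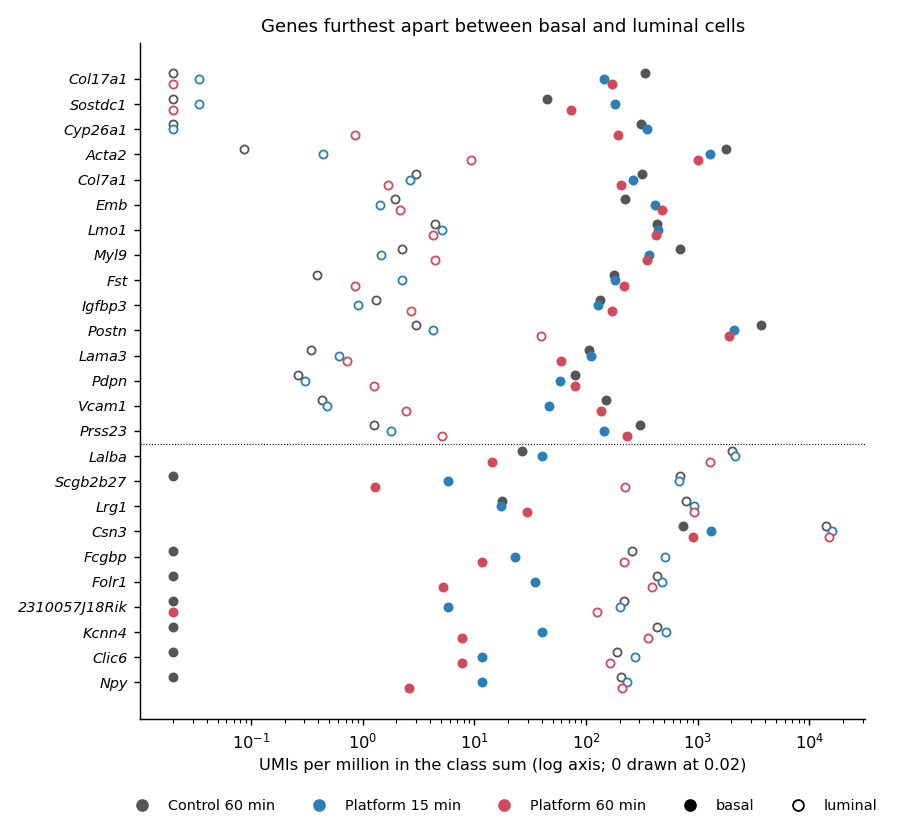
CPM on a log axis for the 15 genes furthest above and the 10 furthest below luminal cells by the ratio bound nearest to 1. Filled points are basal and open points luminal cells, coloured by library. The classes do not overlap for any of these genes, which were chosen for that contrast.

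Of the 15 contraction genes, 10 had enough UMIs and all 10 were higher. Acta2 (chr19:34241090-34255590, minus strand), smooth muscle actin, held 1806 CPM (1567 to 2071) in the control, 1274 (1111 to 1454) at 15 min and 1002 (933 to 1075) at 60 min, against 0.0867, 0.439 and 9.28 CPM in luminal cells. Myl9, a regulatory myosin light chain, held 699, 365 and 350 CPM against 1.45 to 4.46. Oxtr, the oxytocin receptor, held 79.7, 40.5 and 84.2 CPM against 2.51 to 4.58. Actg2, the enteric smooth muscle actin, had no UMI in any basal cell. Luminal Acta2 cannot be read as expression, because 0.0798, 0.344 and 1.06% of luminal cells held a UMI against 1.75, 1.27 and 1.78% of leukocytes. Thinned to 3000 UMIs, the shares were 0.0449, 0.107 and 0.437% against 0.828, 0.317 and 0.43%.

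Of the 16 genes tested in the basal identity list, 10 were higher and 0 lower past 2-fold in all 3 libraries. Lbp and Sox10, members of the list, still stood below luminal cells in each library. Their basal to luminal ratios were 0.319, 0.800 and 0.571 for Lbp and 0.471, 0.554 and 0.649 for Sox10. Sox10 is also among the Schwann markers summed above. Krt17 (chr11:100256217-100261029, minus strand), a keratin of basal and stressed epithelium, held 1877 CPM (1633 to 2147), 585 CPM (476 to 711) and 641 CPM (586 to 700.0) against 8.74 to 13.6 in luminal cells. Apoe, the lipid carrier, held 4408, 9971 and 5822 CPM against 149 to 293, and all but 2 of the 125 cells had it. Without the cells carrying markers of other classes, Apoe was at 4624, 9373 and 4512 CPM. Apoe is also abundant in leukocytes of this tumor, and the part of free RNA in its level was not tested. Krt15, often listed as a basal keratin, was found in 0, 2 and 5 cells only. Of the 16 genes of the keratin list, which again holds Krt15 and Krt17, 11 were tested. Krt17 was the only one counted as higher, and Krt1, Krt4, Krt6b and Krt13 had no UMI. Of 22 keratinization genes, 11 had no basal UMI, and of 12 tested 2 were higher and 2 lower. The 2 counted as lower, Sprr1a and Klk8, had 0 and 1 basal UMI in all, so no lower level can be read from them.

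Signalling genes divided between the layers. Of 11 Notch genes tested, 3 were higher in basal cells and 2 lower. The ligands Jag1 (62.0, 34.7 and 44.0 CPM against 1.02 to 1.91) and Jag2 (106, 69.5 and 62.2 CPM against 0.845 to 1.45) were higher. The receptor Notch1 held 8.85, 46.3 and 27.2 CPM against 83.6, 112 and 79.5 in luminal cells. In the Wnt list, 6 of 18 were higher and 0 lower, among them the secreted modulator Sfrp1 at 142, 150 and 159 CPM against 26.4 to 42.5. The EGF receptor and ligand list had 0 of 10 higher and 5 lower. Of those 5, Erbb4, Btc and Nrg4 had no basal UMI and Areg had 1, and only for Erbb3, a receptor, did the counting interval lie below 1 in every library. The receptor Egfr was not counted as higher because its control ratio to luminal cells was 1.68 (0.455 to 4.32). Its ratios were 3.06 (1.77 to 4.92) at 15 min and 2.47 (1.78 to 3.36) at 60 min. Of the genes of mesenchymal transition, 5 of 16 were higher and 0 lower. Snai2, a transcription factor of basal mammary cells, held 97.4, 81.1 and 55.7 CPM against 0.520 to 1.35, and Vim 487, 376 and 289 CPM against 39.2 to 76.5. Twist2 had no UMI and Zeb1 reached at most 1.29 CPM. Proteases and inhibitors were higher for 7 of 15 and lower for 2, neither of the 2 beyond counting error in every library. The higher ones included the gelatinase Mmp2, at 319, 168 and 186 CPM against 1.39 to 8.02, and the metalloproteinase inhibitor Timp3 at 797, 892 and 729 CPM against 24.5 to 49.0.

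Outside the lists, the genes furthest above luminal cells included the secreted matrix protein Postn (3674, 2119 and 1896 CPM against 2.99 to 39.8), the activin antagonist Fst (177, 180 and 216 CPM against 0.390 to 2.26) and the retinoic acid hydroxylase Cyp26a1 (310, 353 and 193 CPM against at most 0.844). Lmo1, a LIM-domain transcriptional cofactor, varied least between libraries of those named here, at 434, 440 and 426 CPM against 4.22 to 5.10. Emb, the adhesion glycoprotein embigin, held 221, 417 and 479 CPM, and Sostdc1, a secreted BMP and Wnt inhibitor, 44.3, 180 and 72.5 CPM. The rest of the 15 were Igfbp3, Pdpn, Vcam1 and Prss23.

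Luminal and milk genes were lower in basal cells for 16 of 28 tested and higher for 0. For 14 of the 16 the counting interval lay below 1 in every library, and the others, Foxa1 and Csn2, had no basal UMI. Lalba, the milk protein alpha-lactalbumin, held 26.6, 40.5 and 14.2 CPM against 2030, 2173 and 1274 in luminal cells. Csn3, kappa-casein, held 744, 1309 and 905 CPM against 14126 to 15972. Epcam, the epithelial adhesion molecule, was found in 11 of 13, 20 of 20 and 87 of 92 basal cells and held 841, 1251 and 980 CPM against 2246 to 2423 CPM in luminal cells. Leukocytes, chosen to lack Epcam, cannot serve as its background. For Krt18, 33.4, 17.8 and 15.6% of leukocytes held a UMI, against 100, 80.0 and 72.8% of basal cells. Thinned to 3000 UMIs, these were 12.4, 6.18 and 5.84% against 61.5, 70 and 52.9%. The other genes furthest below luminal cells were Scgb2b27, Lrg1, Fcgbp, Folr1, 2310057J18Rik, Kcnn4, Clic6 and Npy.

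Basal cells were not uniform. Acta2 was absent from 5 of 13, 14 of 20 and 50 of 92 cells, and its highest cell held 84, 147 and 213 UMIs. The sum of the contraction list per cell ran from 1144 to 33550 CPM in the control, 301 to 29177 CPM at 15 min and 110 to 38357 CPM at 60 min. The medians were 2802, 2124 and 2574 CPM. The medians thus lay close together and the upper tails were long in each library.

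A split at 10 UMIs of Acta2, chosen after the values were seen, gave 27 cells above and 98 below. The cells above were 5 of 13 in the control, 2 of 20 at 15 min and 20 of 92 at 60 min. They held 2939 CPM of Tagln, a smooth muscle actin-binding protein, against 82.8 CPM in the others. Trp63 held 165 CPM in the Acta2-rich cells and 172 CPM in the rest over all libraries, but the direction differed by library. It was 302.5 against 165 CPM in the control, 227.5 against 122.5 CPM at 15 min and 124 against 186 CPM at 60 min. Lgals7 went the other way, at 658 CPM in the Acta2-rich cells and 1134 CPM in the rest, and 6 of 27 against 29 of 98 cells held at least 10 UMIs of Lgals7. In the control, 0 of 5 Acta2-rich cells and 4 of 8 others were at that level, and the cell rich in pericyte markers was among the 4. The counts were 1 of 2 against 3 of 18 at 15 min and 5 of 20 against 22 of 72 at 60 min. The inverse pattern thus rested mainly on the control.

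Within basal cells, the libraries were compared next. Only genes with at least 50 UMIs in the 2 libraries together were read, 726 for 15 min over control and 2339 for 60 min over control. The 15 min library was at least 2-fold higher for 55 genes (7.58%) and at least 2-fold lower for 20 (2.75%). The 60 min library was higher for 157 (6.71%) and lower for 52 (2.22%). Median ratios were 0.986 and 1.02. Both comparisons share the 13 control cells, whose basal sum was 112966 UMIs against 172707 and 772240 UMIs, so 1 UMI weighed 8.85 CPM in the control and 5.79 and 1.30 CPM on the platform. Single cells decided many of these values. For 12 of the 55 genes higher at 15 min, 1 cell held at least 50% of the UMIs, and with the top cell of the higher library left out 26 of 55 were still past 2-fold. That count was 8 of 20 for genes lower at 15 min, 131 of 157 for genes higher at 60 min and 12 of 52 for genes lower at 60 min. The cell left out was 1 of 92 for genes higher at 60 min, 1 of 20 for genes higher at 15 min and 1 of 13 for both lower sets. These counts therefore cannot rank the sets by how much they depend on 1 cell.

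Contraction genes had their highest sum in the control basal cells, and 3 of its 13 cells supplied most of it. The list summed to 7639 CPM in the control, 3989 CPM at 15 min and 4264 CPM at 60 min, while in luminal cells it held 413 to 433 CPM. The 3 cells richest in the list held 623 of 863 list UMIs (72.2%) in the control, 448 of 689 (65.0%) at 15 min and 918 of 3293 (27.9%) at 60 min. Without those 3 cells of each library, an exclusion chosen after the values were seen, the sums were 2926, 1678 and 3236 CPM, and the control was then not the highest. The 3 cells are a larger part of 13 than of 92. At 60 min, 5 of 10 tested members were lower and 1 higher, with a median ratio of 0.527, and at 15 min 1 of 6 was lower and 0 higher, with a median of 0.615. Tagln held 1647 CPM (1418 to 1901) in the control, 110 CPM (66.2 to 172) at 15 min and 769 CPM (709 to 834) at 60 min. The ratio of Tagln was 0.0668 (0.0393 to 0.107) at 15 min and 0.467 (0.396 to 0.554) at 60 min. Tagln came from 5 of 13, 5 of 20 and 27 of 92 cells, and its top cell held 40.9, 52.6 and 40.1% of its UMIs. Mylk, the kinase of myosin light chain, held 186, 122 and 46.6 CPM, a ratio of 0.251 (0.142 to 0.452) at 60 min. Tpm2 had a ratio of 0.462 (0.377 to 0.569) at 60 min. Myh11, smooth muscle myosin, held 186, 11.6 and 11.7 CPM, and 85.7% of its control UMIs came from 1 cell. The control cell rich in pericyte markers was among the 13, and pericytes also hold smooth muscle genes. Without that cell the control sum of the list was 8218 CPM, so it did not carry the difference, and Col4a1, a basement membrane collagen, dropped from 204 to 119 CPM.

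**Figure D4:**
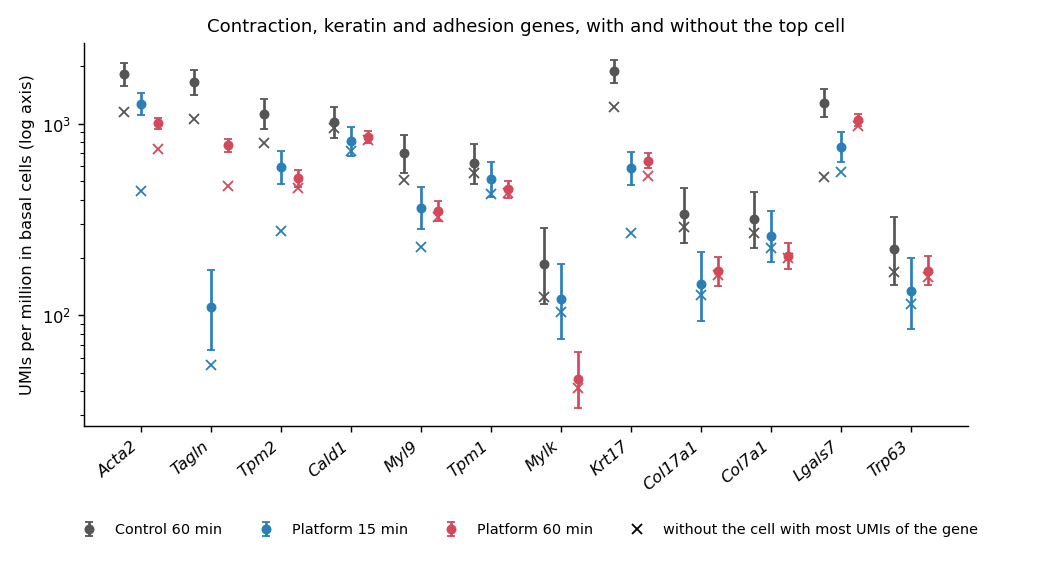
CPM (log axis) of 12 contraction, keratin and adhesion genes in basal cells of each library, with exact Poisson 95% intervals. Crosses give the level without the cell that held most UMIs of the gene. Acta2 at 15 min drops from 1274 to 447 and Lgals7 in the control from 1284 to 528.

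Krt17 followed the same order at 1877, 585 and 641 CPM, with ratios to the control of 0.312 (0.243 to 0.397) and 0.342 (0.290 to 0.403). The UMIs of Krt17 in the control came from 4 of 13 cells, of which 1 held 42.0%, whereas 60 of 92 cells held it at 60 min (30.8, 25 and 48.3% of thinned cells in the 3 libraries), so the share of cells and the level went opposite ways and no order is read from the share. Col17a1 was counted as lower at 15 min with a ratio of 0.430 (0.249 to 0.732), and at 60 min its ratio was 0.504 (0.349 to 0.744). Across the hemidesmosome and basement membrane list, 2 of 15 tested were lower and 0 higher at 60 min, with a median of 0.794. The basal identity list had 4 of 13 higher and 1 lower at 60 min. Lgals7 and Trp63 stayed within 2-fold in both platform libraries. The other genes among the 10 lowest at 60 min were Igfbp2, an insulin-like growth factor carrier, Sfrp2, a Wnt modulator, Col2a1, Crip1, Htra1, Col4a1 and the long noncoding Gm26917. Igfbp2 held 673, 122 and 49.2 CPM, and 86.8% of its control UMIs came from 1 cell, without which the control level was 97.0 CPM. Crip1 held 1434, 226 and 418 CPM, with 58.0% of the control UMIs in 1 cell. At 15 min the 10 lowest also held Nupr1, Bgn and Ltbp2.

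Genes of dissociation stress were of special interest, because enzymatic digestion is known to induce immediate early and heat shock genes. The study scored stress with a larger published gene set, which was not summed here, and showed 12 selected genes singly. Those 12 stress genes summed to 6506 CPM in control basal cells, 11731 CPM at 15 min and 11016 CPM at 60 min. In luminal cells of the same libraries they summed to 14352, 13692 and 17660 CPM. Basal cells were below luminal cells in each library, and the control was lowest among basal cells but not among luminal cells. Ratios to the control in basal cells were 1.80 (1.66 to 1.96) at 15 min and 1.69 (1.57 to 1.83) at 60 min. In luminal cells they were 0.954 (0.95 to 0.958) and 1.23 (1.22 to 1.24). Whether basal and luminal ratios differ beyond the spread between digests was not tested, for want of a second library.

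All 12 stress genes stood above the control at 60 min, 2 of them past 2-fold, and at 15 min 3 of 9 tested were past 2-fold. Jun, an AP-1 subunit, held 859 CPM (696 to 1047) in the control, 2090 CPM (1880 to 2317) at 15 min and 1709 CPM (1618 to 1804) at 60 min. Its partner Fos held 1222, 2611 and 2059 CPM, ratios of 2.14 (1.76 to 2.61) and 1.69 (1.42 to 2.02). The Jun and Fos intervals of both platform libraries lay above those of the control. Fosb was past 2-fold at 60 min, with a ratio of 2.68 (1.82 to 4.11). Atf3, a stress-induced transcription factor, held 26.6 CPM in the control, which is 3 UMIs from 2 cells, against 354 CPM at 60 min in 29 of 92 cells, a ratio of 13.3 (4.51 to 65.0) with a wide counting interval. Luminal cells held 902, 482 and 982 CPM of Atf3, so basal cells were below them in each library.

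A longer list of other early and heat shock genes also stood above the control on the platform. At 60 min, 11 of 17 tested were higher and 0 lower, with a median ratio of 2.37 in basal and 1.34 in luminal cells, and at 15 min 6 of 10 were higher and 0 lower, with medians of 2.36 and 0.637. Klf6, an early response transcription factor, held 62.0, 411 and 414 CPM, and Ier2, an immediate early gene, 310, 788 and 716 CPM. Hspa1a, an inducible heat shock protein, held 221 CPM (143 to 327) in the control, 677 CPM (560 to 812) at 15 min and 544 CPM (493 to 598) at 60 min. The 15 min value of Hspa1a rested on 1 cell, which held 75 of its UMIs or 64.1% and also 197 UMIs of Krt8 and Krt18.

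Without the 6 cells that held more Krt8 and Krt18 than Krt5 and Krt14, Hspa1a was at 238, 223 and 490 CPM, a ratio of 0.935 at 15 min. The longer list then summed to 3387, 4605 and 6517 CPM instead of 3390, 6832 and 7034. The 12 stress genes changed less, at 6575, 11072 and 10615 CPM. Jun and Fos remained above the control on the platform, Jun at 904, 2217 and 1664 CPM and Fos at 1284, 2677 and 1987 CPM. At 15 min the Hspa1a difference thus lay in cells rich in luminal keratins, whereas those of Jun and Fos did not.

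**Figure D5:**
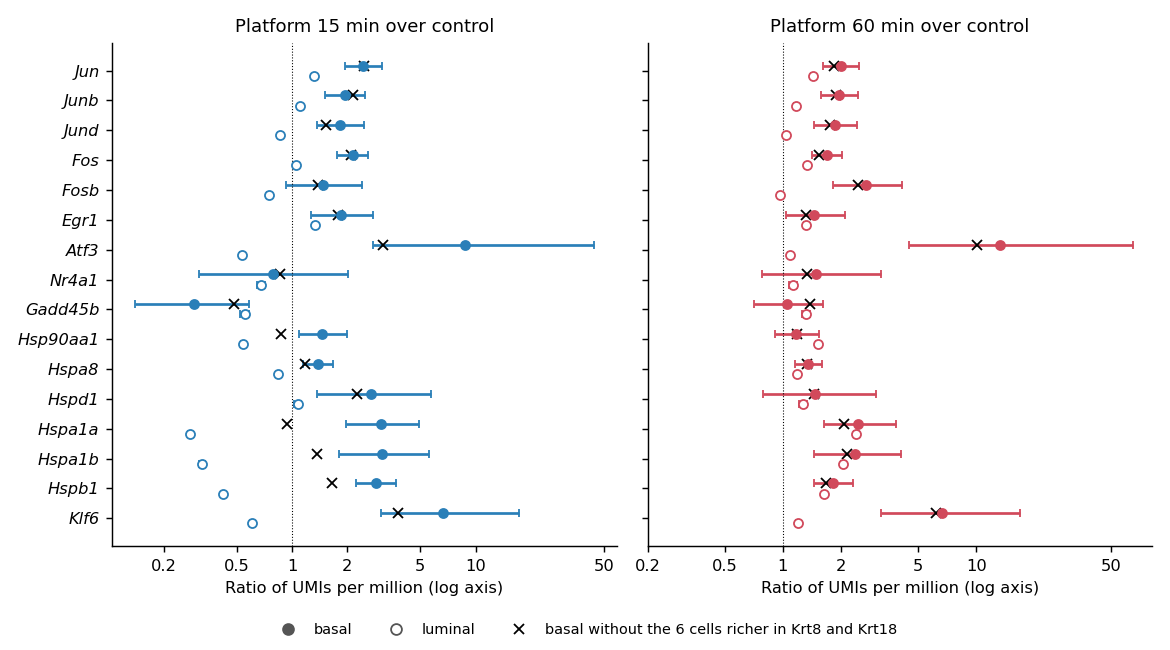
Ratios of CPM to the control, on a log axis, for the 12 stress genes shown singly by the study and 4 further genes, with 95% counting intervals. Filled points are basal and open points luminal cells, and crosses are basal cells without the 6 cells richer in Krt8 and Krt18. At 15 min Hspa1a moves from 3.06 to 0.935 without those cells, while Jun stays above 2.

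Several other genes stood higher at 15 min. The 10 highest were Wfdc12, Wfdc18, Pgf, Lgals3, Klf6, Spp1, Ltf, Socs3, Gas1 and Muc15. Wfdc18, a secreted protein of luminal cells, held 398, 2953 and 632 CPM, and 374 of its 510 UMIs at 15 min came from 1 cell. Without the 6 cells richer in luminal keratins, Wfdc18 was at 228, 185 and 320 CPM. Wfdc12 was at 0 in the control and at 718 CPM at 15 min, at least 27.0-fold higher against the limit of 3 UMIs, with 96.8% of the UMIs in 1 cell. Ltf, Muc15 and Lgals3 rested on the same kind of cells. Luminal and milk genes were higher at 15 min for 4 of 11 tested, with a median of 1.76, and the rule for basal cells set no limit on Krt8 or Krt18.

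Of the 10, Wfdc12, Pgf, Klf6, Spp1, Socs3 and Gas1 were still past 2-fold without those 6 cells. Socs3, an inhibitor of cytokine signalling, held 292, 1106 and 765 CPM, with ratios of 3.79 (2.61 to 5.66) at 15 min and 2.62 (1.85 to 3.84) at 60 min, and without the 6 cells it held 305, 1387 and 776 CPM. Spp1, osteopontin, held 3222, 10608 and 6951 CPM and was found in 12 of 13, 19 of 20 and 79 of 92 cells. It is also abundant in luminal cells, at 15496 to 26082 CPM. Gas1, a membrane growth regulator, held 79.7, 382 and 124 CPM.

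At 60 min the 10 highest were Cd74, C1qa, H2-Ab1, Atf3, H2-Aa, C1qb, Klf6, Ctss, Ifi27l2a and Slpi. Cd74 held 35.4, 63.7 and 852 CPM, a ratio of 24.1 (9.35 to 88.6), but 76.9% of its 60 min UMIs lay in 1 of the 2 cells with leukocyte markers. Without the 4 cells carrying markers of other classes, the leukocyte sum at 60 min was 42.8 CPM and Cd74 was at 39.6, 18.5 and 42.8 CPM. The complement gene C1qa dropped from 179 to 25.4 CPM, H2-Ab1 from 260 to 9.36 CPM and Ctss from 98.4 to 8.02 CPM. Most 60 min UMIs of these antigen presentation and macrophage genes thus lay in those cells. In the interferon and antigen presentation list, 5 of 12 tested were higher and 0 lower with them included. Without them its sum went from 6221 to 4988 CPM at 60 min and from 4559 to 4505 CPM in the control. Isg15 (96.3 against 29.7 CPM) and Bst2 (74.9 against 19.8 CPM) were then still past 2-fold, and Cd74, H2-Aa and H2-Ab1 were not. The control levels of Isg15 and Bst2 rest on few UMIs, since 1 UMI weighed 8.85 CPM over all control basal cells. At 15 min, without the cells carrying other markers, Isg15 held 246 CPM and Bst2 55.4 CPM.

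Slpi, a secreted protease inhibitor, was not of that kind. It held 452 CPM (336 to 594) in the control, 869 CPM (735 to 1019) at 15 min and 1481 CPM (1397 to 1570) at 60 min. The ratio was 3.28 (2.48 to 4.43) at 60 min, and Slpi came from 6 of 13, 6 of 20 and 48 of 92 cells. In luminal cells it stood at 136, 209 and 314 CPM, a 60 min ratio of 2.31, so both epithelial classes were higher there. Emb was past 2-fold at 60 min, with a ratio of 2.17 (1.44 to 3.39). The rule limited Mki67 and Top2a, and of the other cell cycle genes tested 0 of 3 were higher and 1 lower at 60 min.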

How the data were processed

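The authors aligned reads to mm10 with Cell Ranger 3.1.0, merged the 3 tumor libraries by aggregation, a step that subsamples reads to equal depth, and deposited whole-number UMI counts for 31053 genes and each cell before their own filters. UMIs lost in that step cannot be recovered. The authors ran the alignment and barcode calling. All steps from the counts on were run here. Cells were tied to libraries by barcode suffix through the deposited aggregation table, and to conditions by the sample labels. The kidney libraries were not used here. The control library held 90414805 UMIs, the 15 min library 101222030 and the 60 min library 97006183. Kept cells had medians of 8210, 9228 and 9476 UMIs, and basal sums held 112966, 172707 and 772240 UMIs, which set the precision of each level.

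Counts were summed over the cells of a class in each library and divided by the class total (CPM). Intervals at 95% were exact binomial for shares, Newcombe for differences of shares, exact Poisson for levels and exact conditional binomial for ratios. Ratios of shares carry the same exact conditional binomial interval. With 1 library per condition no test was run and cells were not used as replicates. A gene counted as higher or lower past 2-fold, among genes with at least 50 UMIs in the sums compared, with the genes of the rule left out. Named genes were the list members the results turn on, the 10 highest and 10 lowest per platform library and the 15 highest and 10 lowest against luminal cells, ranked by the interval bound nearest to 1 (mitochondrial genes left out of the condition lists). Genes named for what 1 cell held were looked at after their values were seen. The rule for cells, the gene lists and the comparisons were chosen with earlier results of these data known. Shares of cells with a UMI were also computed on cells thinned to 3000 UMIs, given for Trp63, Col17a1, Acta2, Krt17 and Krt18. Scrublet (scanpy 1.11.5) was run per library on cells with at least 200 genes and marked 1.13, 2.17 and 2.02%. Doublets were otherwise treated only by the limit on genes. Python 3.11.15 (numpy 2.4.6, scipy 1.17.1, pandas 2.3.3, matplotlib 3.10.9) was used, and edgeR 4.0.16 in R 4.3.3 only for TMM factors as an alternative scaling. The ratio and interval code was tested on simulated data. Alternatives covered the limits of the rule, the scaling, the minimum of UMIs, equal weight per cell, thinning and doublets.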

Additional observations from a re-analysis of the deposited data

Results flagged for a closer look

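The results here are genes whose basal and luminal ratios to the control both passed 2-fold in opposite directions. None of these differences was tested, since each condition was 1 library.

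At 15 min, 3 heat shock genes stood higher in basal cells and lower in luminal cells. Hspa1a had a ratio of 3.06 (1.98 to 4.92) in basal and 0.279 in luminal cells, Hspa1b 3.08 (1.81 to 5.54) and 0.325, and Hspb1 2.86 (2.23 to 3.70) and 0.421. Without the 6 cells richer in Krt8 and Krt18, the basal levels of Hspb1 were 695 CPM in the control and 1142 CPM at 15 min, and those of Hspa1b 162 and 223 CPM. Sfrp2 had ratios of 0.238 and 2.05 in basal and luminal cells, and Bgn, a matrix proteoglycan, 0.380 and 2.61. Luminal levels of both were low, at 1.52 and 3.11 CPM of Sfrp2 and 1.26 and 3.28 CPM of Bgn in the control and 15 min libraries.

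At 60 min, 5 genes stood lower in basal cells and higher in luminal cells. The basal and luminal ratios were 0.0731 and 2.72 for Igfbp2, 0.221 and 6.12 for Sfrp2, 0.299 and 3.79 for Htra1, 0.305 and 2.45 for Col4a1 and 0.467 and 2.49 for Tagln. Without the cell with pericyte markers, control Col4a1 was 119 CPM against 64.2 CPM at 60 min. Without its top cell, control Igfbp2 was 97.0 CPM against 49.2 CPM at 60 min, so neither was then past 2-fold. Luminal levels at 60 min reached at most 16.9 CPM (Igfbp2), and Sparc, a stromal and basal gene, went from 10.0 to 88.4 CPM in luminal cells between the control and 60 min. The part of free RNA in these luminal values was not tested.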

How the results depend on the processing

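Leaving out replicates was not possible, because each condition was 1 library. No paired analysis was possible because the 3 libraries form a single replicate, and no result comes from a test. The 60 min minus control share of 1.30 points became 1.97 points without the Krt5 condition and 3.11 points over cells with Epcam. Genes past 2-fold at 15 min numbered 75 in both directions, 26 with cells thinned to 3000 UMIs, 5387 with no minimum of UMIs and 45 without the cells richer in Krt8 and Krt18. At 60 min they numbered 209, 74 when thinned and 6502 with no minimum. Against luminal cells, 451 genes were higher when thinned (700 otherwise) and 3586 lower with no minimum (1186 otherwise). Without a minimum, genes with a few UMIs enter, and thinning lowers how many reach 50 UMIs.

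Over 101 named genes and 1004 alternatives, 896 stayed close to the reported value, 98 moved and 10 turned direction. At 15 min, leaving out the cells richer in Krt8 and Krt18 gave ratios of 0.935 for Hspa1a, 0.995 for Krt18, 0.260 for Ltf, 0.223 for Muc15 and 0.812 for Wfdc18. A limit of at least 10 Krt5 and Krt14 UMIs gave 0.959 for Krt18 and 0.142 for Lgals3, and no upper limit on genes gave 0.676 for Krt18 and 1.00 for Bgn. At 60 min, H2-Ab1 was at 0.945 without the cells carrying markers of other classes. These last 2 exclusions, of luminal-keratin-rich cells and of cells with other markers, were added after seeing the data. Depth limits the control most, with 13 cells.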

Other observations

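The 277 cells with at least 5 UMIs of Krt14 and none of Krt5 were left out of the basal cells. In the 60 min library they held 32.8 CPM of Trp63, 266 CPM of Lgals7, 598 CPM of Krt17 and 101 CPM of Acta2, each above the control value of the same class (4.3, 69.5, 262 and 3.2 CPM). Cells with at least 4 UMIs of Klk6, Klk10 and Dmkn, 868 in all, were a separate class with 1.6, 2.1 and 1.7 CPM of Trp63 and 4866, 2392 and 2778 CPM of Krt8.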
